A study of Mus musculus with 6 samples.

Results

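Transcripts of 10 mucin and goblet cell product genes were measured in cancer-associated fibroblasts (CAFs) sorted from mouse colonic adenomas. The genes were Muc1, Muc2, Muc4, Muc6, Muc13, Tff3, Fcgbp, Agr2, Zg16 and Spink4, found by their exact gene names among the 49548 genes of the deposited table, and all 10 had reads in at least 1 library. The animals were adult Col6a1-Cre;Rosa26-mTmG mice on a C57/BL6 background, in which Cre recombinase driven by Col6a1 regulatory sequence switches a membrane Tomato reporter to membrane GFP. All animals of both groups received azoxymethane (AOM), a colon carcinogen, followed by cycles of dextran sodium sulfate (DSS) in the drinking water, which injures the colonic epithelium. Col6a1+ CAFs were the GFP+ cells and Col6a1- CAFs the Tomato+ cells of the same lineage-negative gate, which left out cells with CD45 (leukocytes), EpCAM (epithelium), CD31 (endothelium) or Ter119 (erythroid cells) on their surface. Each group had 3 libraries, each from pooled tumors of several mice. The GFP label follows Col6a1-Cre activity, which the authors place in pericytes, PDGFRa-high telocytes and a minor share of PDGFRa-low fibroblasts. They place trophocytes and most PDGFRa-low fibroblasts among the Col6a1- fibroblasts. The Col6a1- group is defined by the lack of the label and may hold any Tomato+ cell that passed the gate.

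Mucins are long glycoproteins with serine- and threonine-rich stretches that are densely O-glycosylated in the Golgi. Gel-forming mucins are secreted by goblet cells and polymerize into the mucus layer that separates colonic bacteria from the epithelium, while transmembrane mucins stay on the apical surface of epithelial cells. Goblet cells also release smaller proteins into the mucus, among them trefoil peptides, lectins and protease inhibitors, and rely on a specialized endoplasmic reticulum to fold the large mucin polymers. These genes are epithelial products and are not known as markers of fibroblasts.

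The libraries held between 3039152 and 3425249 normalized counts, and between 18770 and 20511 genes were detected in 5 of them, against 14530 in Col6a1+ replicate 1. Col6a1 itself, which marks the reporter, had 861, 1287 and 1941 normalized counts in Col6a1+ replicates 1, 2 and 3 and 182, 321 and 102 in Col6a1- replicates 1, 2 and 3, higher in every Col6a1+ library as labelled (limma adjusted p = 0.00613, and 0.0983 with a replicate block). Values below are normalized counts in the same replicate order, a negative log2 fold change means a lower level in Col6a1+ CAFs, and genes with a limma adjusted p below 0.05 are described as called.

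Mucin and goblet cell transcripts were lower in Col6a1+ than in Col6a1- CAFs. All 10 genes were lower in Col6a1+ CAFs in each of the 3 same-number pairs of libraries, which 18.8% of the 26402 genes tested also were. The groups did not overlap for 9 of the 10, with every Col6a1+ value below every Col6a1- value, against 11.6% of all genes, the exception being Muc1. The 10 genes summed to 1181, 1552 and 810 normalized counts in Col6a1+ CAFs and to 4452, 9952 and 3804 in Col6a1- CAFs, or 0.0236% to 0.0489% and 0.118% to 0.303% of each library. The Col6a1- sums varied more, with replicate 2 well above the other two. In bulk libraries, fewer cells of a type and less RNA per cell cannot be told apart.

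With limma, 5 of the 10 genes were called lower in Col6a1+ CAFs, namely Muc2, Muc6, Muc13, Tff3 and Zg16, where 1.96% of all genes tested were called lower. The median log2 fold change of the 10 was -3.54, beside -0.27 for all genes tested. Muc6 was well inside the threshold, while Muc2, Muc13, Tff3 and Zg16 had adjusted p values between 0.0409 and 0.0474. When the replicate number entered as a block, 0 of the 10 and 0% of all genes were called lower, although all 10 had an unadjusted p under 0.05 (9.72% of all genes lower). With the block and only genes of a mean of at least 10 normalized counts, 8 of the 10 were called lower, all but Muc1 and Fcgbp, against 6.44% of 13515 genes. An unadjusted p below 0.05 with an absolute log2 fold change over 1 was reached by 9 of the 10 and by 8.61% of all genes in this direction. The calls depended on single libraries, as did those over all genes, of which 517 were called lower with all 6 libraries. Without Col6a1+ replicates 1, 2 and 3 in turn, 2, 4 and 1 of the 10 were called lower. Over all genes the same fits called 442, 218 and 149 lower. Without Col6a1- replicates 1, 2 and 3 in turn, 0, 1 and 0 of the 10 were called lower. Over all genes these fits called 1, 52 and 14 lower. Muc13, Tff3 and Zg16 were called in none of these 6 fits, Muc2 in the one without Col6a1+ replicate 2 and Muc6 in 4. Every one of the 10 kept its negative sign in all 6 of these fits.

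**Figure D1:**
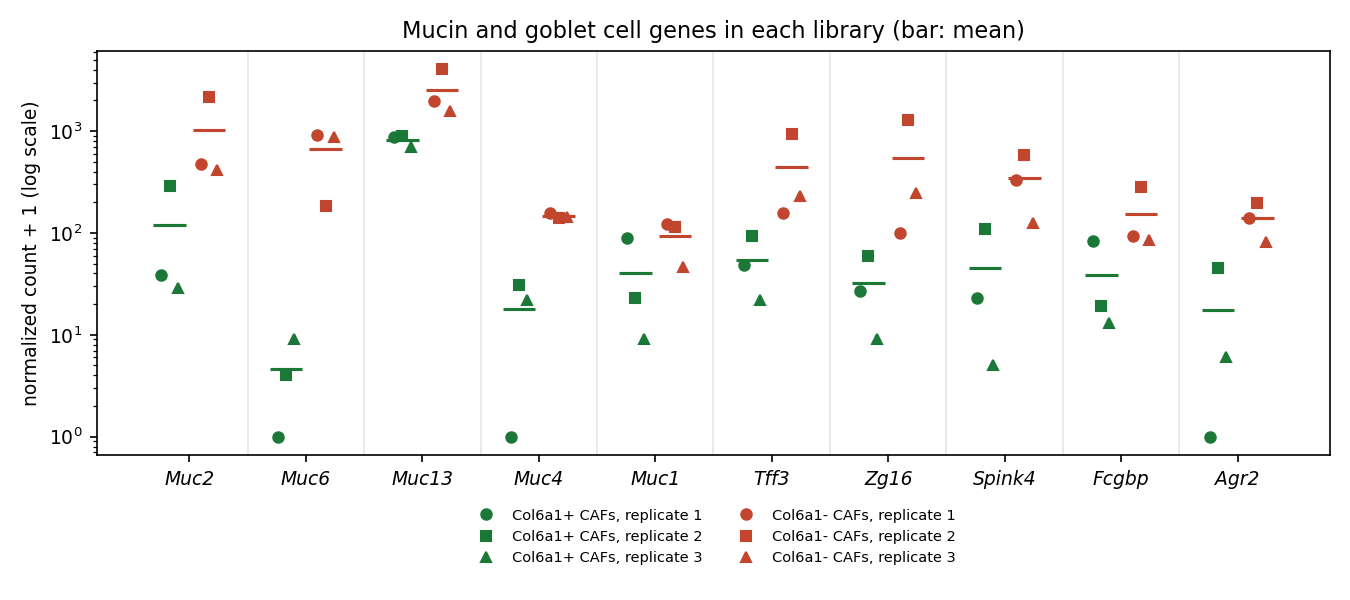
Normalized counts plus 1 (log axis) of the 10 genes in each of the 6 libraries, with Col6a1+ CAFs in green, Col6a1- CAFs in red, the replicate number as marker shape and the mean as a bar. The groups are apart for every gene but Muc1, and Muc6 ranges from 0 to 8 in Col6a1+ CAFs and from 181 to 925 in Col6a1- CAFs.

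General epithelial transcripts differed in the same direction, although EpCAM-positive cells had been left out by the gate. All 16 general epithelial markers were lower in Col6a1+ CAFs by sign, as were 58.8% of all genes tested. Of the 16, 11 were called lower, against 1.96% of all genes, and their median log2 fold change was -2.12. The groups did not overlap for 15, against 11.6% of all genes. The block alone called 0 of them, and 0 of all genes. With the block at a mean of at least 10 counts, 13 of the 16 were called lower, against 6.44% of 13515 genes. The 16 markers summed to 6501, 8416 and 7352 normalized counts in Col6a1+ CAFs and 28327, 44395 and 42797 in Col6a1- CAFs, or 0.196% to 0.265% and 0.932% to 1.35% of each library. Epcam, the gene of the gated surface protein, had 1074, 884 and 615 counts in Col6a1+ and 3107, 4129 and 3730 in Col6a1- CAFs (log2 fold change -2.12, limma adjusted p = 0.0033, and 0.0625 with the block). Cdh1, which encodes the epithelial adhesion protein E-cadherin, had 2999, 2344 and 2580 against 10493, 15452 and 11963 counts (log2 fold change -2.25, SE 0.28, limma adjusted p = 0.00212, and 0.0612 with the block), a call lost without Col6a1- replicate 1 (-2.37) or 3 (-2.28). Neither group was at 0 for these markers, and the mucin counts relative to them are given below. The part of these markers in the mucin result was not tested.

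Muc2 and Muc6, the gel-forming mucins, are neighbors on mouse chromosome 7, with 35 kb between them. Muc2 (ENSMUSG00000025515, mm10 chr7:141690340-141754693, plus strand) is the structural mucin of colonic mucus. It had 38, 287 and 28 normalized counts in Col6a1+ CAFs and 471, 2177 and 414 in Col6a1- CAFs. In both groups replicate 2 held several times the level of the others, and the highest Col6a1+ value stayed below the lowest Col6a1- value. The means were 118 ± 147 and 1020.7 ± 1001.8 (SD, n = 3), and the log2 fold change was -3.45 (SE 0.85, limma adjusted p = 0.0464, and 0.0612 with the block).

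Muc6 (ENSMUSG00000048191, mm10 chr7:141633456-141655319, minus strand), known as the mucin of deep gastric glands and duodenal Brunner's glands, differed most of the 10. It had 0, 3 and 8 normalized counts in Col6a1+ CAFs and 925, 181 and 872 in Col6a1- CAFs. Among the Col6a1- libraries, replicate 2 was the lowest for Muc6 and the highest for Muc2. The means were 3.67 ± 4.04 and 659 ± 415 (SD, n = 3), and the log2 fold change was -7.32 (SE 0.88, limma adjusted p = 0.00185, and 0.0659 with the block). Its call was lost without Col6a1- replicate 1 (log2 fold change -6.92, limma adjusted p = 0.0972) and without Col6a1- replicate 3 (-6.96 and 0.0847). In Col6a1+ replicates 1 and 2 its counts were at or below 3, the level taken here as the limit that counting allows.

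The neighboring promoters of Muc2 and Muc6 and the upstream start of Muc13 are shown because these genes carried the most counts or the largest difference, with Muc6 in another library order than Muc2 and Muc13. Each is the 250 bases before the start in RefSeq (GRCm38.p6), with capitals marking matches on either strand to 6 motifs, those of the TATA box, of CDX, GATA, FOXA and HNF4 factors, which regulate intestinal genes, and of the E-box. Muc2 is read from chr7:141690090-141690339 (plus strand), Muc6 from chr7:141655394-141655643 (minus strand) and Muc13 from chr16:33793787-33794036 (plus strand).
Muc2: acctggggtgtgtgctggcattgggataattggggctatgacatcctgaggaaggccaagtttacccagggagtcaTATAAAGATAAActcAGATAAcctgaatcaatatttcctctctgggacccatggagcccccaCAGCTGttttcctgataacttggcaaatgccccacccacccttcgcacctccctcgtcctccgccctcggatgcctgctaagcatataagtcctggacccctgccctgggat
Muc6: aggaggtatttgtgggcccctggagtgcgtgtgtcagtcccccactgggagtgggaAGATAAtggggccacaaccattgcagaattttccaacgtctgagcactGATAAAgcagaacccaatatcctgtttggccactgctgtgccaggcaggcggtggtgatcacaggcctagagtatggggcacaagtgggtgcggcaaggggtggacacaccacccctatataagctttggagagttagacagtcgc
Muc13: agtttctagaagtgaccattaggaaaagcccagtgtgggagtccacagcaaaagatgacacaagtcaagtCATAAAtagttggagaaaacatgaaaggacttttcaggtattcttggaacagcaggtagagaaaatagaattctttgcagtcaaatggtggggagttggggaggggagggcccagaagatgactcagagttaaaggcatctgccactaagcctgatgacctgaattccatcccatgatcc
The Muc2 window held 1 TATA box, 2 CDX, 2 GATA and 1 E-box match, the first of them 174 bases before the start. The Muc6 window held 1 CDX match 146 bases and 1 GATA match 194 bases before its start, and the Muc13 window held 1 CDX match at 180 bases. At a second Muc13 start, an HNF4 match lay 186 bases upstream. The TATA box was searched as TATAAA, which 12.4% of all 32851 promoter windows of this length held. For CDX factors the letters were TTTATN, held by 37.2% of windows and overlapping the TATA box. For GATA factors they were AGATAA, held by 9.99% and overlapping a CDX match in the Muc2 window. The E-box was searched as CAGCTG, held by 13% of windows. FOXA factors were represented by the letters TGTTTAC, held by 3.17% of all windows and by none of the 7 genes with a RefSeq entry here. The HNF4 letters were CAAAGTCCA, held by 0.384%. The motifs were picked after a larger set of strings had been looked at, and a match is a description of the letters only.

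Among the transmembrane mucins, Muc13 (ENSMUSG00000022824, chr16:33794037-33819934, plus strand), an abundant surface mucin of colonic enterocytes and goblet cells, had the most counts of the 10 genes in both groups. It had 876, 889 and 695 normalized counts in Col6a1+ CAFs and 1965, 4062 and 1566 in Col6a1- CAFs. The Col6a1+ libraries lay close together, and their highest value was below the lowest Col6a1- value. The means were 820 ± 108 and 2531 ± 1340.8 (SD, n = 3), with a log2 fold change of -1.51 (SE 0.36, limma adjusted p = 0.0409, and 0.104 with the block). This was the smallest fitted log2 fold change of the 10. An antisense gene, Gm15657, lies over Muc13 with 49, 8 and 5 counts in Col6a1+ and 0, 19 and 9 in Col6a1- CAFs, and reads of the pair could not be told apart if counting ignored strand, which the sources used here do not state.

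Muc4 (ENSMUSG00000079620, chr16:32735886-32782391, plus strand), a large transmembrane mucin that can bind the receptor ERBB2, had 0, 30 and 21 normalized counts in Col6a1+ CAFs and 155, 139 and 142 in Col6a1- CAFs. Its Col6a1- libraries were the most even of any of the 10 genes, at 145 ± 8.5 (SD, n = 3). The log2 fold change was -4.05 (SE 1.09) and did not pass the threshold (limma adjusted p = 0.0664). It was -2.48 without Col6a1+ replicate 1, the library with 0 counts and the fewest genes detected. Muc4 was called in that fit (limma adjusted p = 0.0218) and in no other fit without 1 library.

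Muc1 (ENSMUSG00000042784, chr3:89229057-89233381, plus strand), a broadly expressed epithelial surface mucin, was the 1 gene whose groups overlapped. It had 89, 22 and 8 normalized counts in Col6a1+ CAFs and 122, 113 and 45 in Col6a1- CAFs, so that Col6a1+ replicate 1 exceeded Col6a1- replicate 3. The log2 fold change of -1.70 (SE 0.79) did not pass the threshold (limma adjusted p = 0.33) and was -0.93 without Col6a1+ replicate 3.

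Of the smaller secreted products, Tff3 and Zg16 were called lower in Col6a1+ CAFs. Tff3 (ENSMUSG00000024029, chr17:31125306-31129646, minus strand), the trefoil peptide of goblet cells that takes part in epithelial repair, had 48, 92 and 21 normalized counts in Col6a1+ CAFs and 157, 932 and 228 in Col6a1- CAFs. Its log2 fold change was -2.80 (SE 0.69, limma adjusted p = 0.0474, and 0.0806 with the block). Zg16 (ENSMUSG00000049350, chr7:127050156-127087328, minus strand), a lectin-like mucus protein that binds Gram-positive bacteria, had 26, 59 and 8 counts against 98, 1294 and 247. Its log2 fold change was -3.70 (SE 0.90, limma adjusted p = 0.0456, and 0.1 with the block). In both groups replicate 2 was the highest library for both genes, and across the 6 libraries their log2 levels had a Pearson r of 1.00 with each other.

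Spink4 (ENSMUSG00000028415, chr4:40920052-40931395, plus strand), a Kazal-type protease inhibitor of goblet cells, had 22, 108 and 4 normalized counts in Col6a1+ CAFs and 328, 579 and 125 in Col6a1- CAFs. The log2 fold change of -3.64 (SE 0.96) did not pass the threshold (limma adjusted p = 0.0614). Of the fits without 1 library, only that without Col6a1+ replicate 2 called Spink4 (-4.75, limma adjusted p = 0.0439). Its closest values were 108 in Col6a1+ replicate 2 and 125 in Col6a1- replicate 3. Fcgbp (ENSMUSG00000047730, chr7:28071236-28120862, plus strand), a large protein of the mucus layer, had 82, 18 and 12 counts against 92, 279 and 84. The groups came within 2 counts of each other, and the log2 fold change of -2.25 (SE 0.73) did not pass the threshold (limma adjusted p = 0.128). Agr2 (ENSMUSG00000020581, chr12:35992907-36004087, plus strand), a protein disulfide isomerase of the endoplasmic reticulum that is required for Muc2 production, had 0, 44 and 5 counts against 139, 196 and 81. Its log2 fold change was -4.34 (SE 1.14, limma adjusted p = 0.0603), and it was -3.00 without Col6a1+ replicate 1, where Agr2 was at 0. Only the fit without Col6a1+ replicate 2 called Agr2 (-5.74, limma adjusted p = 0.0336) among those without 1 library.

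The 10 genes did not share a library order. In Col6a1- CAFs, replicate 2 was the highest library for 7 genes (Muc2, Muc13, Tff3, Fcgbp, Agr2, Zg16 and Spink4) and the lowest for Muc4 and Muc6, while replicate 1 was the highest for Muc1, Muc4 and Muc6. In Col6a1+ CAFs, replicate 2 was the highest for 7 genes, and Muc4, Muc6 and Agr2 were at 0 in replicate 1. Across the 6 libraries, which share the group difference, the Pearson r of log2 levels between members ranged down to 0.12 for Muc1 and Muc4 and was 0.96 for Muc2 and Tff3.

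To set each gene against the epithelial transcripts in the same library, counts were also expressed per 1000 normalized counts of the 16 general epithelial markers, a scaling chosen after seeing the data. By mean count Cdh1 and Cldn4 were the largest of these markers, so the scale rests largely on them. On this scale the 10 genes together had 182, 184 and 110 in Col6a1+ CAFs and 157, 224 and 88.9 in Col6a1- CAFs, so that the groups overlapped. Muc13 held most of the Col6a1+ sums, and the other 9 genes had 46.9, 78.8 and 15.6 against 87.8, 133 and 52.3, overlapping between the groups but lower in Col6a1+ CAFs in all 3 same-number pairs. Of the 10 genes, 8 were lower in 2 or more pairs and Muc1 and Muc13 in 0. The groups overlapped for 8, and the exceptions were Muc6 and Muc13. Muc6 had 0, 0.356 and 1.09 in Col6a1+ and 32.7, 4.08 and 20.4 per 1000 in Col6a1- CAFs, lower in Col6a1+ on this scale too. Muc13 had 135, 106 and 94.5 against 69.4, 91.5 and 36.6 per 1000, the opposite direction to its level per library.

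Fitted on the same scale, 1 of the 10 genes was called lower in Col6a1+ CAFs, Muc6, with a log2 fold change of -5.70 (SE 1.17, limma adjusted p = 0.00321), where 0.576% of all genes were called lower. The median of all genes moved from -0.27 to 1.27 under this scaling and that of the 10 from -3.54 to -1.25. With the replicate block on this scale, 4 of the 10 were called lower, Muc6 (limma adjusted p = 0.000185), Muc2 (log2 fold change -1.12, limma adjusted p = 0.0137), Zg16 (-1.40 and 0.04) and Spink4 (-1.37 and 0.0384), against 0.413% of all genes. Muc13 was called higher with this block (0.84, limma adjusted p = 0.0424), as were 36.1% of all genes. Without the block it was not called (0.84, SE 0.41, limma adjusted p = 0.152), where 34% of all genes were called higher. On this scale Muc1 and Fcgbp had log2 fold changes of 0.58 and 0.05, neither past the threshold.

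**Figure D2:**
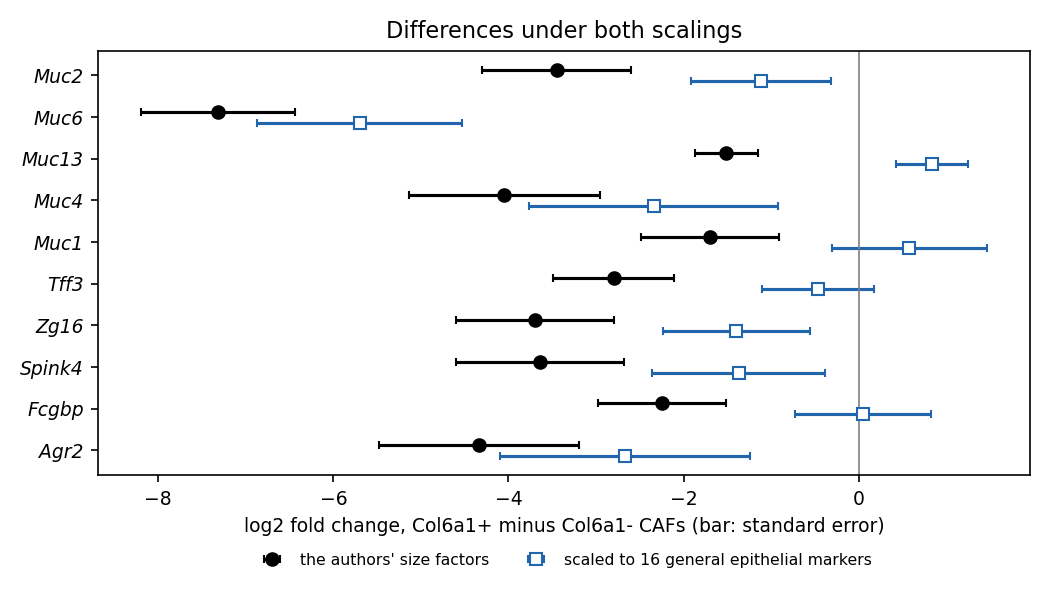
Log2 fold change of each of the 10 genes, Col6a1+ minus Col6a1- CAFs, with its standard error, under the authors' size factors (black circles) and after scaling to the 16 general epithelial markers (open blue squares). All black points are below 0, while on the epithelial scale Muc6 stays at -5.70 and Muc13 moves to 0.84.

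**Figure D3:**
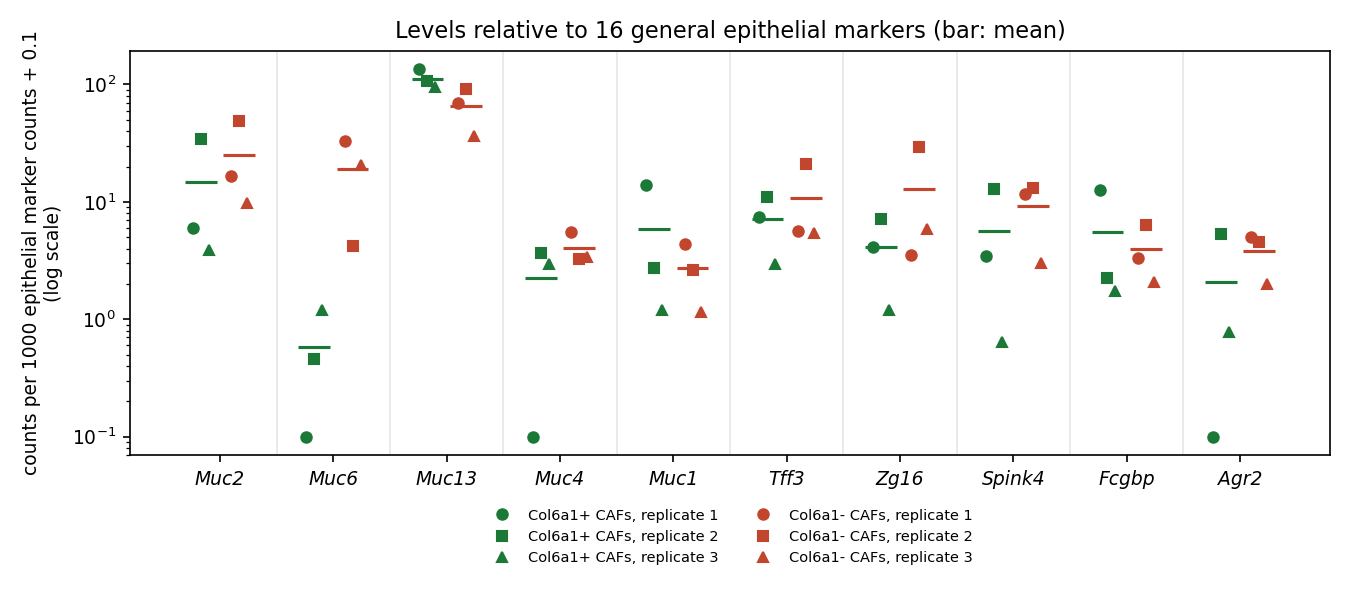
Counts per 1000 general epithelial marker counts, plus 0.1 (log axis), of the 10 genes in each of the 6 libraries, with colors, shapes and bars as in the plot of normalized counts. Muc6 and Muc13 are the genes whose groups do not overlap, in opposite directions.

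The other mucins were mostly near or at 0. Of 10 further mucin genes in the table, 7 were tested and 1 was called lower in Col6a1+ CAFs. Their median was a log2 fold change of -1.0. This was Muc3, an intestinal transmembrane mucin, with 63, 64 and 47 normalized counts in Col6a1+ and 182, 490 and 167 in Col6a1- CAFs (log2 fold change -2.08, SE 0.46, limma adjusted p = 0.0295, and 0.101 with the block). Its call was lost without any 1 of the 6 libraries (log2 fold change between -2.36 and -1.58). Muc5ac and Muc5b, the gel-forming mucins of the gastric surface and the airways, were at 0 in all 6 libraries, as was Mucl1. Muc20, which lies antisense to Muc4, had at most 6 counts.

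Of 22 other goblet cell genes tested, 19 were lower in Col6a1+ CAFs by sign, as were 58.8% of all genes tested. The groups did not overlap for 10 of them (11.6% of all genes), 1 was called lower (1.96%) and 0 higher, and the median log2 fold change was -2.05. The called gene was Itln1, a lectin that binds microbial sugars, with 0, 41 and 4 normalized counts in Col6a1+ and 250, 223 and 370 in Col6a1- CAFs (log2 fold change -5.53, SE 1.08, limma adjusted p = 0.0171, and 0.119 with the block), and its call remained without Col6a1+ replicate 2 (-6.94) and was lost without any other library (between -5.68 and -4.25). Clca1, a mucus metalloprotease, had 14, 145 and 12 against 128, 1198 and 252 counts, overlapping in 1 library of each group (limma adjusted p = 0.0773). Reg4, a C-type lectin of secretory epithelial cells, had 56, 139 and 13 against 223, 369 and 171 counts (limma adjusted p = 0.105). The transcription factors on the list varied in level, and those given here were picked out after their values were seen. Atoh1, which commits progenitors to the secretory lineage, had 0, 7 and 0 against 3, 11 and 10 counts, and Spdef, which drives goblet cell maturation, had 0, 8 and 0 against 4, 18 and 4. Foxa3 had 70, 31 and 17 against 81, 199 and 221 counts (limma adjusted p = 0.0709). Creb3l1 lay on the other side of 0, with 122, 139 and 276 against 110, 107 and 57 counts (log2 fold change 0.93, limma adjusted p = 0.337). On the epithelial scale Creb3l1 (3.26, limma adjusted p = 0.000807) and Sytl2 (1.92 and 0.00852) were called higher, as were 34% of all genes. Itln1 was called lower there (-3.87, limma adjusted p = 0.0472, and 0.00701 with the block), as were 0.576% of all genes. With the block on that scale, Clca1 was also called lower (-1.17, limma adjusted p = 0.0322) and Klf4 higher (1.19 and 0.0273). Klf4, a factor that fibroblasts also express, had 50, 554 and 218 against 198, 525 and 658 counts, with overlapping groups. Tff2, a gastric trefoil peptide, was at 0 throughout.

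The list for mucin O-glycosylation had 26 genes tested, not all of them enzymes of that pathway (C1galt1c1 and Fut8 are on it). Of these, 20 were lower and 6 higher in Col6a1+ CAFs by sign (58.8% and 41.2% of all genes), with a median log2 fold change of -1.10. Only 1 was called lower and 2 higher (1.96% and 2.66% of all genes). All 3 calls were lost with the block alone, which called 0 genes in all. With the block at a mean of at least 10 counts, 3 of 23 were called lower and 3 higher. Galnt12, which starts O-glycan chains, was called lower, with 38, 88 and 84 normalized counts in Col6a1+ and 182, 361 and 203 in Col6a1- CAFs (log2 fold change -1.84, SE 0.45, limma adjusted p = 0.0437, and 0.0911 with the block). St3gal1, a sialyltransferase acting on core 1 O-glycans, was called higher, with 320, 260 and 453 against 140, 107 and 53 counts (log2 fold change 1.84, SE 0.42, limma adjusted p = 0.0335, and 0.16 with the block). Gcnt4, which builds core 2 branches, was also called higher, with 30, 64 and 209 against 3, 3 and 4 counts (log2 fold change 4.12, SE 0.84, limma adjusted p = 0.0203, and 0.09 with the block). The calls of Galnt12 (between -2.05 and -1.45) and St3gal1 (between 1.45 and 2.14) were lost without any 1 of the 6 libraries, and that of Gcnt4 (between 3.38 and 4.23) without any but Col6a1+ replicate 1 (4.76). The widely expressed initiating enzyme Galnt1 had 575, 550 and 481 against 405, 519 and 457 counts, a log2 fold change of 0.22 that did not pass the threshold, and its relative Galnt2 had 1004, 823 and 619 against 595, 411 and 325 (limma adjusted p = 0.177). B3galt5, which extends glycan chains with galactose, had 44, 210 and 113 against 260, 708 and 283 counts (limma adjusted p = 0.105). B3gnt6, the enzyme of core 3 O-glycans typical of colonic goblet cells, was at 0 in every library.

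Other cell types were read from their marker lists. Of all genes tested, 58.8% were lower in Col6a1+ CAFs by sign, 1.96% were called lower and 2.66% higher. The block alone called 0 genes in all, so the loss of every call in this paragraph under it was fixed in advance. With the block at a mean of at least 10 counts, 6.44% of 13515 genes were called lower and 981 genes higher. That fit called 5 absorptive colonocyte, 2 immune, 1 tuft and 1 mesothelial marker lower. It called 7 fibroblast markers and 1 endothelial marker higher. All 12 absorptive colonocyte markers were lower by sign and 2 were called (median log2 fold change -1.62). Of 8 enteroendocrine markers tested, 7 were lower by sign and 0 were called, and the list summed to between 0 and 5 counts in Col6a1+ and between 36 and 77 in Col6a1- CAFs. Chga, Chgb, Insl5, Neurod1 and Tph1 were at 0 in all Col6a1+ libraries, and Rfx6 was at 0 in all 6 libraries. Insl5 had 3, 0 and 1 and Neurod1 0, 4 and 1 counts in Col6a1- CAFs, also near 0. Of 3 tuft cell markers tested 0 were called, and Il25, Pou2f3 and Trpm5 were at 0 in every library. Of the 12 immune markers 8 were lower and 4 higher by sign, and S100a8 and S100a9, neutrophil proteins, were called lower (limma adjusted p = 0.0717 and 0.0612 with the block). These 2 genes held 43, 35 and 36 against 440, 778 and 329 counts, and the other 10 together held 38, 20 and 42 against 63, 87 and 129. Of 5 mesothelial markers 1 was called lower (Krt7, also a ductal keratin), of 7 endothelial markers 6 were lower by sign (median log2 fold change -1.34) and 1 was called higher (Tie1, limma adjusted p = 0.144 with the block), and 0 of 5 erythroid and 0 of 4 glial markers were called. The 9 fibroblast markers were all higher in Col6a1+ CAFs, 6 of them called, with sums between 44055 and 48420 against between 8766 and 16035 counts. The part of these lists in the mucin result was not tested, and the epithelial scaling is a ratio that does not test it.

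**Figure D4:**
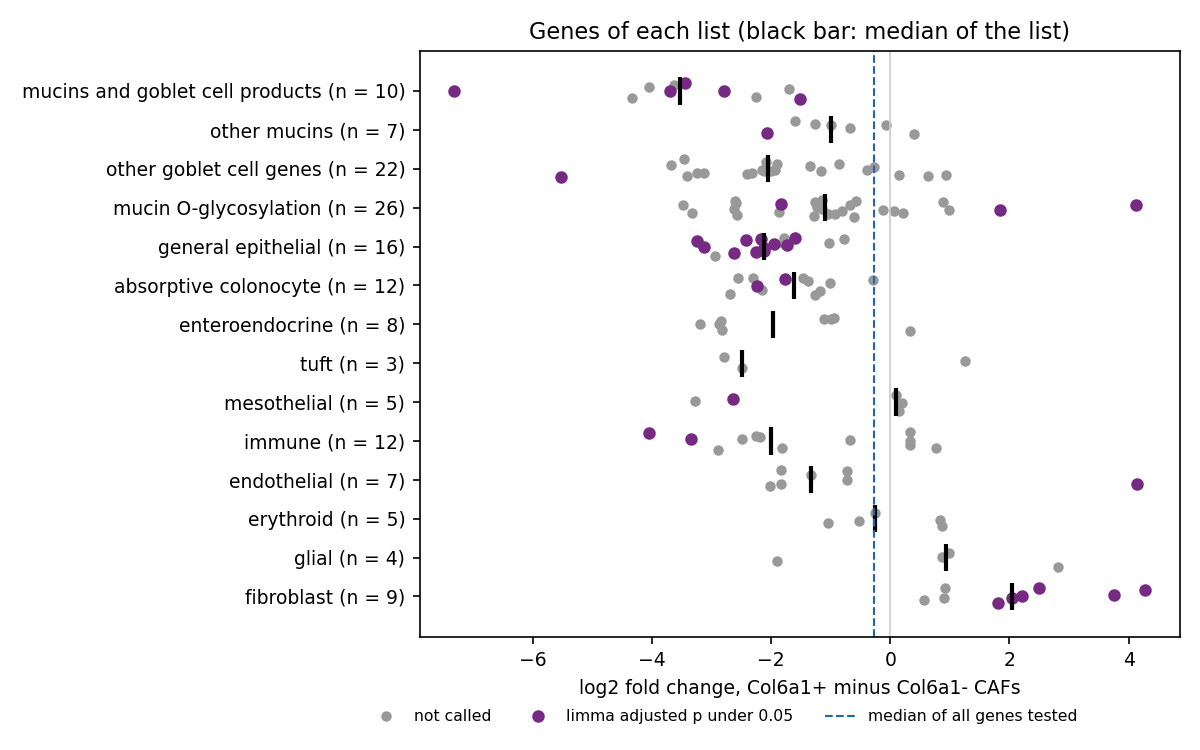
Log2 fold change of each gene tested in the 10 mucin and goblet cell products and in 13 marker and pathway lists, with list medians as black bars, called genes in purple and the median of all genes tested as a dashed line. The 10 genes have a median of -3.54, general epithelial markers of -2.12 and fibroblast markers of 2.04.

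By normalized counts, the Col6a1- means ran from 2531 for Muc13 through 1020.7 for Muc2 and 659 for Muc6 to 93.3 for Muc1. Per kilobase of gene model, the order in Col6a1- CAFs was Muc13 (1093.8 ± 579 counts per kb, SD, n = 3), Muc6 (327 ± 206), Tff3 (307 ± 299), Zg16 (193 ± 230), Spink4 (132 ± 87.4), Muc2 (131 ± 129), Fcgbp (56.9 ± 41.4), Agr2 (51.5 ± 21.3), Muc1 (33.4 ± 15.1) and Muc4 (26.0 ± 1.52). Only Muc13 lay above the next gene in every library range, and the ranges of all other neighbors in this order overlapped. The assay reads the 3′ ends of transcripts, so division by length lowers long genes such as Muc2 relative to short ones such as Tff3. In Col6a1+ CAFs, Muc13 had 354 ± 46.9 and Muc6 1.82 ± 2.00 counts per kb.

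The genes whose levels followed the 10 most closely were ranked by their mean Pearson r with all 10 over the 6 libraries, among 13505 genes with a mean of at least 10 counts. The first 8 were Hip1r (0.871), Gm3336, Spink1, Chmp2b, Tstd1, Pgd, Dusp6 and Prom1 (0.861). A mean r above 0.7 was reached by 1249 genes, and all points share the difference between the groups. Spink1, a trypsin inhibitor, had 88, 192 and 31 normalized counts in Col6a1+ and 609, 2028 and 609 in Col6a1- CAFs (log2 fold change -3.47, SE 0.65, limma adjusted p = 0.0136, and 0.0612 with the block).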

How the data were processed

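RNA of sorted Col6a1+ (n = 3) and Col6a1- (n = 3) CAFs was sequenced by the authors as 3′ mRNA libraries on an Ion Proton. The authors mapped reads to mm10 with TopHat2 and then Bowtie2, and counted and normalized them with metaseqR (GenomicRanges, DESeq). Whether counting used strand and how multi-mapping reads were treated is not given in the sources used here. The deposited log2 values are log2(normalized count + 1), and 100% of them came back to whole normalized counts within 0.001. The deposited length-scaled signal is the normalized count divided by gene-model length. Per the file headers, the table also holds the authors' own p-values and fold changes, which were not used. Homeostatic fibroblasts were not analysed here.

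The 26402 of 49548 genes whose normalized counts summed to 1 or more were fitted with limma 3.58.1 in R 4.3.3 (lmFit, eBayes with trend) on the log2 values, with Benjamini-Hochberg adjustment over all genes. On this scale (pseudocount 1) the change of low genes is understated. The spacing of low values put the depth at 2570000 to 4520000 reads in 4 libraries. It could not be resolved in Col6a1+ replicate 1, the library with the fewest genes detected, or in Col6a1- replicate 2. The p-values without the block measure the spread between the 3 libraries of each group, taken as unpaired. The paper's figure legend gives 3 samples in total, each a pool of tumors from several mice. Both groups may therefore be fractions of the same 3 pools, but which libraries share a pool is not stated. Libraries of the same number in both groups deviated together (r = 0.245, 0.125 and 0.144 over 13515 genes, against -0.245 to 0.15 for different numbers), so they were treated as pairs and the fit with the replicate number as a block, which called 0 genes in either direction, is given beside the calls. The correlations come from the data, since the labels give only the numbers. Pairing by number is therefore an assumption. Col6a1+ replicate 2 and Col6a1- replicate 3, at r = 0.15, exceeded the same-number values of 0.125 and 0.144. Alternatives were another scaling, filter, pseudocount, limma-voom, array weights, an unadjusted rule with an absolute log2 fold change over 1, and leaving out each library with genes filtered again. On simulated data with 3 libraries per group (25157 genes), 63 of 100 genes changed 4-fold and 100 of 100 changed 16-fold were recovered, with 1 false call. The simulated libraries were independent, all genes had the same spread setting, and genes of low mean were left unchanged. Recovery of genes with a spread like that of Muc2 or Zg16 was therefore not tested. Named genes were the 10 members, the called genes and the genes of highest mean count in each list, the 8 genes with the highest mean correlation with the members, and Col6a1. Epcam, Sytl2, the lineage factors and genes at 0 were named after their values were seen. The members and lists were chosen with earlier results of these data known. Promoter sequences are from RefSeq, GRCm38.p6, and 7 of the 10 genes matched. For 1 listed marker gene the result is not reported here.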

Additional observations from a re-analysis of the deposited data

How the results depend on the processing

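Of the calls in Col6a1+ CAFs, 517 genes were lower and 703 higher, with 5 of the 10 mucin and goblet cell genes, 11 of 16 general epithelial markers and 3 genes of the other mucin, goblet and O-glycosylation lists lower. Of the 10 genes, 10 were called lower with array weights and 9 under the unadjusted rule. With library size scaling and with the block at a mean of at least 10, 8 were called. With a pseudocount of 0.1 and under epithelial scaling 1 was called. With at least 10 counts in every library 3 were called, namely Muc2, Muc13 and Tff3. Only these and Fcgbp were tested under that filter. Genes called lower in all were 969 with array weights, 798 with limma-voom and 871 with the block at a mean of at least 10. They were 628 with library size scaling and 458 with at least 10 counts in every library. With the smaller pseudocount they were 336, and under the unadjusted rule 2273 (1607 higher). The 3 list genes became 6 with array weights, 5 with library size scaling and with a mean of at least 10, 8 with the block at that mean, 17 under the unadjusted rule and 1 with the smaller pseudocount. Without a filter, which tests genes at 0 in every library, 7 genes were lower, 21 higher and 0 in each of the lists. With the replicate block alone all these counts were 0. Leaving out each library gave 1 to 442 lower, 11 to 453 higher, 0 to 4 of the 10, 0 to 2 list genes and 0 to 8 epithelial markers.

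Under epithelial scaling, with or without the block, the log2 fold change turned positive for B3galt5 (0.47), Cdh1 (0.11), Dmbt1 (0.59), Fcgbp (0.05), Galnt12 (0.50), Kdr (0.97), Klf4 (1.19), Lypd8 (0.88), Muc1 (0.58), Muc13 (0.84), Muc3 (0.25) and Phgr1 (0.10), as the median of all genes rose to 1.27. Cdh1 is itself among the general epithelial markers that set this scale, so its move toward 0 was built in. Signs also turned without Col6a1+ replicate 3 for Hba-a1 (-0.24, range to 1.93 over the libraries left out), Hba-a2 (-0.19, to 1.96) and Muc3a (-0.33, to 1.38), without Col6a1- replicate 1 for Muc3a (-0.35) and without Col6a1+ replicate 2 for S100b (-0.02, to 2.45). Over 49 named genes, direction and side of the threshold stayed in 552 comparisons, the call was lost in 183 and gained in 41. The cause of these moves was not tested. With 3 libraries a group and 2570000 to 4520000 reads where these could be estimated, genes of a few counts, such as Atoh1 and Spdef, could not be resolved.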
